A study of Mus musculus with 34 samples.

Results

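In hippocampal microglia of mice, 5073 of 151724 merged H3K9ac regions carried a called peak in all 4 Ctrl libraries and in none of the 4 FGR libraries, which is 3.34% of the regions. They were found by merging the peaks of the 8 H3K9ac lists and asking for an overlap of at least 1 bp in each Ctrl list and for none in any FGR list. They are called Ctrl-only regions here. Of the 27332 merged regions with a peak in all 4 Ctrl lists they made up 18.6%. Another 16906 (61.9%) had a peak in all 8 libraries and serve as the comparison set, and 9586 regions were called in all 4 FGR lists and in no Ctrl list. The H3K9ac lists chose the Ctrl-only regions, so H3K9ac values at them are a description without a test. The H3K27ac and H3K4me3 lists played no part in the choice and are tested below.

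FGR is the name the labels give to mice of a study of growth restriction in the uterus, and Ctrl to their controls. All groups share the genotype Tmem119-tdTomato+/-, a reporter that makes microglia fluoresce. The labels of replicates 1 to 3 give an age of 3 weeks after birth, and those of replicate 4 give none. The labels do not say how growth was restricted, the sex of the mice or whether a library pools several of them. Each mark was profiled in 4 FGR and 4 Ctrl libraries by native chromatin immunoprecipitation from very few cells (ULI-NChIP-seq), and what was analysed is 1 list of called peaks per library. The p-values measure the spread between libraries, which may be technical.

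Acetylation of lysine 9 of histone H3 (H3K9ac) and of lysine 27 (H3K27ac) is placed by acetyltransferases at active promoters and enhancers and removed by histone deacetylases. Trimethylation of lysine 4 (H3K4me3) is concentrated at the starts of active genes and is weak at most enhancers. Microglia, the macrophages of the brain, carry acetylated enhancers in and around the genes of their own identity and of innate immunity, many of them bound by the transcription factor PU.1.

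The FGR and Ctrl lists differed as whole libraries, and this bears on every value below. The lowest local background in a list, a stand-in for sequencing depth, was 0.523 to 0.659 fragments in FGR and 2.347 to 2.63 fragments in Ctrl H3K9ac libraries, a ratio of 0.232 between the group means. The FGR H3K9ac lists were longer, at 54853 to 87128 peaks, than the Ctrl lists, at 42220 to 47729. Their peaks were narrower, with a median of 407 to 459 bp in FGR libraries and 634 to 696 bp in Ctrl libraries. The background was also lower in FGR for H3K27ac (0.621 to 0.767 against 2.388 to 2.751) and for H3K4me3 (0.846 to 1.163 against 2.835 to 3.578). The narrowest peak was 148 to 151 bp in FGR and 267 to 284 bp in Ctrl for H3K27ac, and 148 to 150 bp in FGR and 275 to 280 bp in Ctrl for H3K4me3. H3K4me3 lists held 43175 to 49045 peaks in FGR and 16598 to 18391 in Ctrl. No library of either group fell within the other group's range for any of these measures, so the group and these properties of the libraries cannot be told apart. Of 10 defining microglial genes, 9 to 10 had an H3K9ac peak within 1 kb of an end in FGR libraries and 10 in Ctrl libraries. Of 7 neuronal genes, 3 to 5 had such an H3K9ac peak in FGR libraries and 0 to 1 in Ctrl libraries. None of the 7 had an H3K27ac peak in either group. Other cell types had such H3K9ac peaks too. In FGR against Ctrl they were at 3 to 5 against 1 to 2 of 6 oligodendrocyte lineage genes and 3 to 4 against 2 of 5 endothelial and mural genes. The counts were 3 to 4 against 2 to 3 of 5 astrocyte genes, and 0 to 3 against 1 to 2 of 5 genes of border-associated macrophages. Of 5 lymphocyte and neutrophil genes they were 0 to 1 against 0. The part of these differences in the results was not tested.

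The labels of 2 marks in FGR are uncertain. Among 28087 regions that the 4 Ctrl H3K9ac lists share, 67.2 to 75% had a peak in an FGR H3K9ac list, whereas 83.3 to 87.2% had one in an FGR H3K4me3 list and 82.7 to 88.7% in an FGR H3K27ac list. Ctrl H3K9ac regions were thus covered more often by the lists labelled H3K4me3 than by those labelled H3K9ac in FGR. The 10177 regions that the 4 Ctrl H3K4me3 lists share had a peak in 96.2 to 97.4% of cases in the FGR lists labelled H3K9ac and in 99.7 to 99.9% in those labelled H3K4me3. An exchange of these labels was not tested. With the 4 FGR lists labelled H3K4me3 in place of those labelled H3K9ac, 2528 regions met the rule, and 1107 of the 5073 Ctrl-only regions (21.8%) had no peak in any of the 8 FGR lists of both labels.

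Some Ctrl-only regions overlap gene promoters. Sequences of some of these promoters are shown because the composition and the shares of some of the motifs searched differed from those of other promoters. Of 21262 promoters in the RefSeq table (GRCm38.p6, 250 bp before to 50 bp after a gene start), 92 overlapped a Ctrl-only region and 10439 overlapped a region called in all 8 libraries. The 92 had a median GC content of 46.0%, against 62.0% at the promoters called in all 8 and 56.3% over all promoters. At least 10 CG dinucleotides were found in 20.7% of the 92, in 88.2% of the promoters called in all 8 and in 56.7% of all promoters. These are AT-rich promoters with few CG dinucleotides, a class typical of genes restricted to a tissue. Promoters of 3 myeloid genes follow, with matches to the core of the PU.1 site in capitals (GAGGAAGT or its reverse complement ACTTCCTC). Among the promoters that hold this core, they lay in the regions with the strongest Ctrl H3K9ac peaks, and they were chosen after these values were seen. Each is written 5′ to 3′ on the strand of its gene, from RefSeq. The first is at chr3:106790100-106790399 on the minus strand, the second at chr1:173420354-173420653 on the plus strand and the third at chr11:46454681-46454980 on the plus strand.
Cd53: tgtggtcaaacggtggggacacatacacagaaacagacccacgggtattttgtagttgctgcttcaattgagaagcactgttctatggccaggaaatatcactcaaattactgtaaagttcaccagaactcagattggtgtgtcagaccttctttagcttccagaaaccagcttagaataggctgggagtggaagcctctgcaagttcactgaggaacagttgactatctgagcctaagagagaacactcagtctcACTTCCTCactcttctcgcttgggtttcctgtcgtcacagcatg
Aim2: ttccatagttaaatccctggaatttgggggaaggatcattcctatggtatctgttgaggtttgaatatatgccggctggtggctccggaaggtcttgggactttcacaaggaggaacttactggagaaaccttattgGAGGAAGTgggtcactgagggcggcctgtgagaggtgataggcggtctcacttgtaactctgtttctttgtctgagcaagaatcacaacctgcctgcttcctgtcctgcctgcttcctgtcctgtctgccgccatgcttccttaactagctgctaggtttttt
Havcr2: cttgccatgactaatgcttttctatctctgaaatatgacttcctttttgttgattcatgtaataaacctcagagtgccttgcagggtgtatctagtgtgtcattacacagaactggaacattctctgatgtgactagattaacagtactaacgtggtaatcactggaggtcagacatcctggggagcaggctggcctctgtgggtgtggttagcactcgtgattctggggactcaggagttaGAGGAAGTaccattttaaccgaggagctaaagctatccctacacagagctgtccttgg

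Cd53 encodes a tetraspanin of leukocytes, Aim2 the sensor of cytosolic DNA that starts an inflammasome, and Havcr2 the receptor TIM-3. Each of the 3 regions had H3K27ac peaks in 4 FGR and 4 Ctrl libraries and H3K4me3 peaks in 4 FGR and 4 Ctrl libraries. The PU.1 core occurred in 7 of the 92 promoters (7.6%), in 3.0% of the promoters called in all 8 and in 3.1% of all promoters.

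Interferon regulatory factors bind a repeat of 2 GAAA blocks, searched for on both strands as GAAA, any 2 bases and GAAA. It occurred in 12 of the 92 promoters (13%), in 2.9% of the promoters called in all 8 and in 3.4% of all promoters. Among the 12 are the promoters of Agmo, Clec2d, Trim30d, Tcf12, Cytip, Asb5, Kcnab1 and Mroh2a, which are not printed. Promoters of 4 interferon-induced genes among the 12 follow, picked by gene function after the matches were known. They are written with the matches in capitals, on the strand of each gene, from RefSeq. Their positions are chr7:104465144-104465443 on the minus strand, chr19:34583279-34583578 on the plus strand, chr3:142620413-142620712 on the plus strand and chr5:92348840-92349139 on the minus strand.
Trim30a: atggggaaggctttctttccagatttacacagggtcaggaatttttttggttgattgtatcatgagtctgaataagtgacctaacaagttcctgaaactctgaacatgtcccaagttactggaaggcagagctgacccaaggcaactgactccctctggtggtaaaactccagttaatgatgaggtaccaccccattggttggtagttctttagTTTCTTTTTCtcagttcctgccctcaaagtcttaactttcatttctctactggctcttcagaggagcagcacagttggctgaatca
Ifit3: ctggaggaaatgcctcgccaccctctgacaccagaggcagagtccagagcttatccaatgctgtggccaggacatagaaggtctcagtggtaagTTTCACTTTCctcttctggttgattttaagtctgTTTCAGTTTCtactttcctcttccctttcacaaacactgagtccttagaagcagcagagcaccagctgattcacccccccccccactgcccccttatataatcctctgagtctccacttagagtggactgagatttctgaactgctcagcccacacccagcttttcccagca
Gbp2: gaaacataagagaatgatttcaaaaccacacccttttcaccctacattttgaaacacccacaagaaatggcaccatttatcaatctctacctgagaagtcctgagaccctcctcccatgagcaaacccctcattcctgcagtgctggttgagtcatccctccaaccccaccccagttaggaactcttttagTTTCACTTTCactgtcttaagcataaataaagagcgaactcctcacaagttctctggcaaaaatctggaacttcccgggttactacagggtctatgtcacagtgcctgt
Cxcl10: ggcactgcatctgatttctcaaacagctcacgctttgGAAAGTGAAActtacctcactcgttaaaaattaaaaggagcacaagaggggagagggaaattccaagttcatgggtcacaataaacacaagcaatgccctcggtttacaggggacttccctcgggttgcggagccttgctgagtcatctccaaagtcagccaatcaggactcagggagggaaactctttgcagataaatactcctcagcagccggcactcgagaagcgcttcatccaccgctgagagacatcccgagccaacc

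Trim30a encodes a tripartite motif protein, Ifit3 a binding partner of antiviral RNA-binding proteins, Gbp2 a guanylate-binding GTPase and Cxcl10 the chemokine ligand of CXCR3. Of the other motifs searched on both strands, the AP-1 site TGANTCA was found in 13% of the 92 promoters, 4.0% of those called in all 8 and 7.0% of all. The SP box GGGCGG was found in 19.6%, 68.1% and 46.2% of the same sets, and the ETS core CCGGAAGT in 0 of the 92, in 9.6% and in 5.1%. The NF-kappaB site, GGG and CC around any 5 bases, was found in 39.1%, 69.7% and 57.1% and can overlap an SP box. The NFY box CCAAT was found in 40.2%, 38.5% and 38.2%, the MEF2 site, CTA and TAG around any 4 bases, in 1.1%, 2.8% and 3.5%, and the C/EBP palindrome TTGCGCAA in 0 of the 92, 0.3% and 0.2%. A match is a run of letters in the window and no evidence of binding. Counts among the 92 are small. The sets of promoters were not matched for GC content, whose part in the motif shares was not tested.

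Ctrl-only regions lay mostly inside genes and away from gene starts. Of the 5073, 3106 (61.3%) lay inside a protein-coding gene more than 1 kb from its ends, 1110 (21.9%) outside genes within 50 kb of one and 612 (12.1%) farther away. Within 1 kb of the start or end of a gene, taken as the outer limits of its annotated extent, lay 243 (4.8%), and 136 (2.7%) lay within 1 kb of a known gene start. The median distance to the nearest gene end was 21.04 kb. Regions called in all 8 libraries were placed otherwise, with 57.2% within 1 kb of a gene start or end, 26.8% inside genes and 49.1% at a known start. Over all merged regions 14.8% lay within 1 kb of a gene start or end and 54.2% inside genes. The 2068 regions called in all 4 Ctrl and exactly 1 FGR library were placed much like the Ctrl-only regions. Of these 2068, 6.2% lay within 1 kb of a gene start or end, 59.4% inside genes and 3.5% at a known start. Their median distance to a gene end was 19.46 kb. Ctrl-only regions covered 5.46 Mb, with a median width of 950 bp, against a median of 1877 bp for the regions called in all 8. On the autosomes and chromosome X Ctrl-only regions made up 13.5% (chromosome 17) to 24.3% (chromosome 1) of the regions with a peak in all 4 Ctrl lists. On chromosome Y they were 1 of 8 such regions and on unplaced contigs 2 of 8. The nearest FGR H3K9ac peak of any FGR library was a median of 4.38 kb away, within 1 kb at 19.8% of the Ctrl-only regions and within 50 kb at 95.2%.

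**Figure D1:**
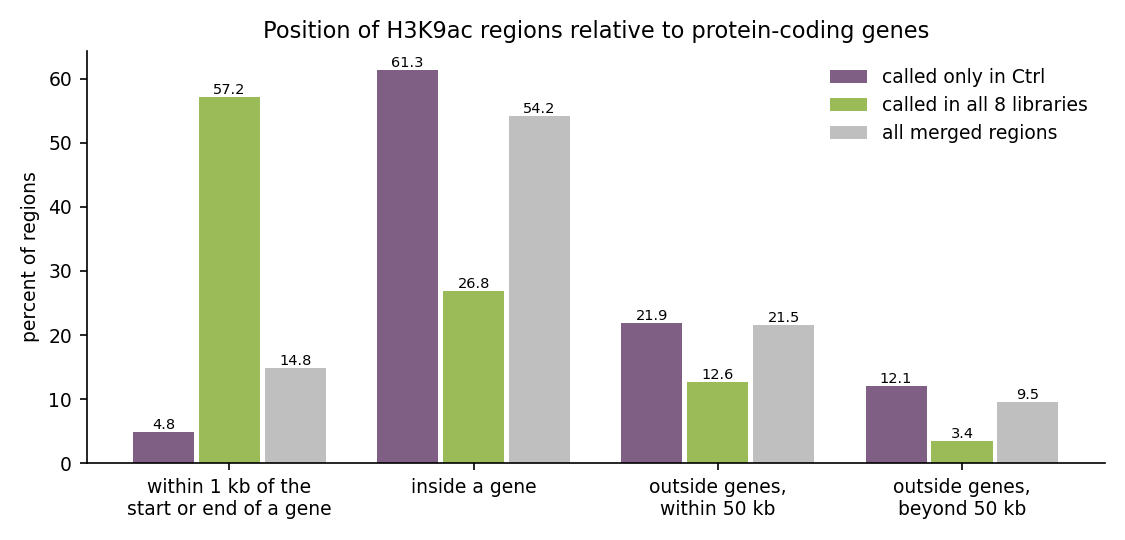
Percent of H3K9ac regions (vertical axis) by position relative to protein-coding genes (horizontal axis), for Ctrl-only regions (5073), regions called in all 8 libraries (16906) and all merged regions (151724). Ctrl-only regions lay within 1 kb of a gene start or end in 4.8% of cases and inside genes in 61.3%, against 57.2% and 26.8% for the regions called in all 8.

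The Ctrl peaks at these regions were weaker than at regions called in all 8, which is a description because Ctrl calls chose them. Their median fold over the local background, as the authors' peak lists give it, was 4.91 with quartiles of 4.3 and 5.92 and a range of 1.62 to 16.73, against a median of 8.61 at regions called in all 8. The median pileup at the summit was 17 fragments in Ctrl libraries, against 36 at regions called in all 8. At regions called in all 4 Ctrl and exactly 1 FGR library the median fold was 5.2 and the median pileup 19. Over all peaks of a Ctrl H3K9ac list the median pileup was 17 to 20 fragments. Scaled by the ratio of backgrounds, 0.232, the pileup of a Ctrl-only region came to a median of 3.95 fragments, while the smallest pileup called in any FGR H3K9ac list was 4. Of the Ctrl-only regions 50.2% lay under that smallest pileup, against 6.2% of the regions called in all 8 and 35.9% of the 2068 regions called in all 4 Ctrl and exactly 1 FGR library. When Ctrl peaks were scaled to the FGR background and kept if they still passed the mean of the weakest −log10 p of the FGR lists, 1202 regions met the rule, and 1191 of the Ctrl-only regions (23.5%) overlapped one of them. These 1191 are called strong Ctrl-only regions here. Of them 7.1% lay within 1 kb of a gene start or end and 54.1% inside genes.

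**Figure D2:**
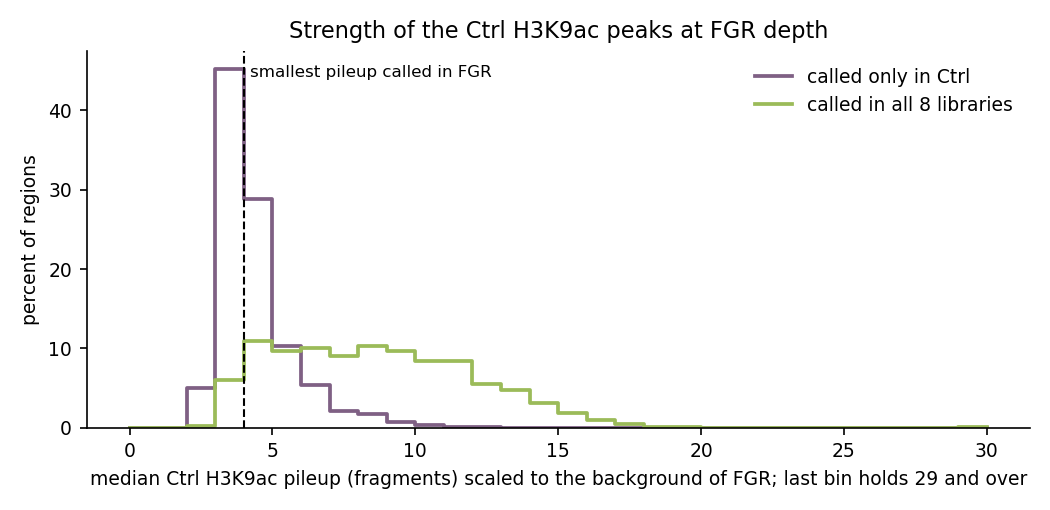
Distribution of the median Ctrl H3K9ac pileup per region, scaled to the background of the FGR libraries (horizontal axis, fragments), as percent of regions (vertical axis), for Ctrl-only regions and for regions called in all 8 libraries. The dashed line is the smallest pileup called in an FGR list, 4 fragments, and 50.2% of the Ctrl-only regions lay left of it, against 6.2% of the regions called in all 8.

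At the edge of the rule stood regions of like strength. The strongest regions with a peak in all 4 Ctrl libraries and exactly 1 FGR library lay at Ptprc, Ccr1, Edn1, Samsn1 and Ddx47. At Ptprc, which encodes the leukocyte phosphatase CD45, the region chr1:138173385-138175970 had Ctrl folds of 17.93, 17.91, 20.02 and 20.23. Among the weakest Ctrl-only regions were those at Cables1, Map3k9, Tmem164 and Tm7sf3, where in at least 1 Ctrl library the peak ranked among the weakest 0.1% of its list.

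H3K27ac remained called at most Ctrl-only regions in FGR. A peak was present at 83.4% ± 3.57 of the regions in FGR libraries and at 90.8% ± 0.32 in Ctrl libraries (SD, n = 4 each). The FGR libraries ranged from 78.22 to 86.42% and the Ctrl libraries from 90.44 to 91.11%, so the groups did not overlap. The difference of −7.4 percentage points had p = 0.0286 in a two-sided exact permutation test over libraries, the smallest p that 4 against 4 libraries allow. At the regions called in all 8 the shares were 88.42% in FGR and 91.94% in Ctrl, and the difference between groups was 3.88 points more negative at the Ctrl-only regions (−3.88, exact permutation p = 0.0286). Both values turned round under scaling. With Ctrl H3K27ac peaks scaled to the FGR background, the Ctrl share was 75.48%, the difference turned to 7.91 points (exact permutation p = 0.0286) and the difference between the sets to 5.2 points. Without scaling, the difference of −7.4 points was larger in size under 3 other settings, at −17.25 with H3K27ac lists of equal length, −17.29 with peaks of a −log10 q of at least 5 and −30.98 when peaks had to cover 50% of the region (55.55% in FGR, 86.53% in Ctrl), each with an exact permutation p of 0.0286. At a cover of 50% the difference between the sets was 2.31 points. At strong Ctrl-only regions H3K27ac was called at 94.94% ± 1.45 in FGR and 97.84% ± 0.42 in Ctrl.

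Counted by region, 3605 Ctrl-only regions (71.1%) had an H3K27ac peak in all 4 FGR libraries and 4361 (86.0%) in all 4 Ctrl libraries. No FGR library had a peak at 297 (5.9%), and no Ctrl library at 266 (5.2%). An H3K27ac peak in all 4 Ctrl and no FGR library was found at 45 regions (0.9%), against 90 (0.5%) of the regions called in all 8. By position, H3K27ac was called in FGR and Ctrl libraries at 87.65% and 92.9% of the Ctrl-only regions at gene starts or ends, at 83.8% and 92.22% of those inside genes, and at 82.06% and 87.99% of those outside genes.

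H3K4me3 was called far more often in FGR. A peak was present at 65.97% ± 3.48 of the Ctrl-only regions in FGR libraries and at 7.28% ± 1.36 in Ctrl libraries (SD, n = 4 each). The FGR libraries ranged from 62.68 to 69.86% and the Ctrl libraries from 5.89 to 9.11%, with no overlap and a difference of 58.69 points (two-sided exact permutation p = 0.0286). At the regions called in all 8 the shares were 94.36% in FGR and 65.06% in Ctrl, and the difference at Ctrl-only regions exceeded theirs by 29.39 points (exact permutation p = 0.0286). That excess turned to −2.18 points when the H3K4me3 lists were cut to equal length and to −21.41 points when at least 50% of a region had to be covered. With lists of equal length the shares at Ctrl-only regions were 12.1% in FGR and 6.64% in Ctrl, a difference of 5.46 points (exact permutation p = 0.0286). At a cover of 50% they were 34.72% in FGR and 2.18% in Ctrl.

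Of the Ctrl-only regions, 2719 (53.6%) had an H3K4me3 peak in all 4 FGR libraries and 79 (1.6%) in all 4 Ctrl libraries, while 1107 (21.8%) had none in FGR and 4223 (83.2%) none in Ctrl. A peak in all 4 FGR and no Ctrl library was found at 1914 (37.7%), against 2538 (15%) of the regions called in all 8, and the reverse at 0. The share with an H3K4me3 peak in FGR and Ctrl libraries was 79.32% and 18.42% at gene starts or ends, 62.38% and 5.36% inside genes, and 70.56% and 9.18% outside genes. At strong Ctrl-only regions it was 89.48% ± 1.86 in FGR and 17.7% ± 3.03 in Ctrl.

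**Figure D3:**
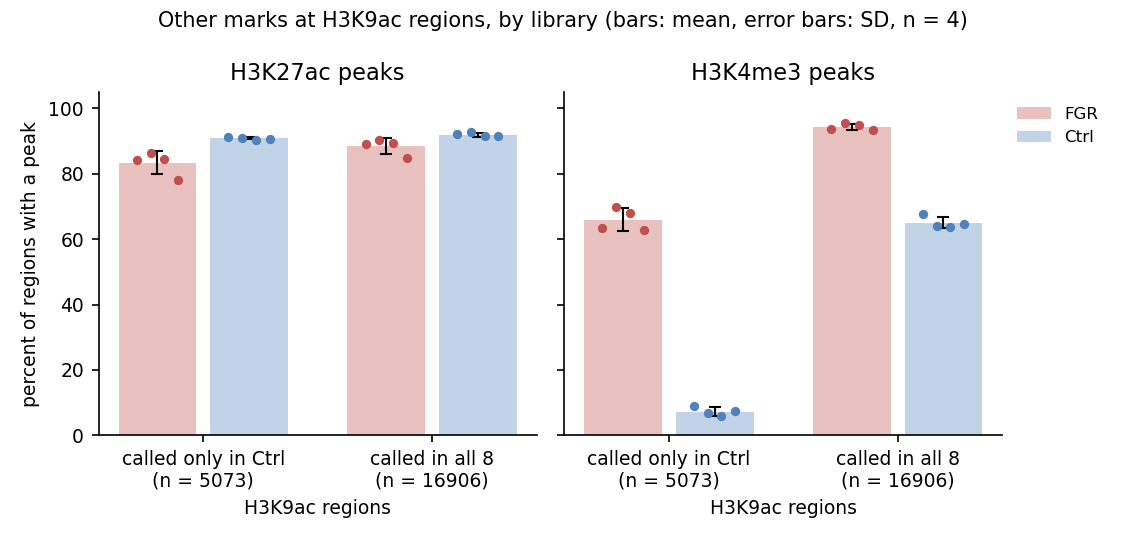
Percent of H3K9ac regions with an H3K27ac peak (left) or an H3K4me3 peak (right) in each library, FGR left of Ctrl, for Ctrl-only regions and for regions called in all 8 libraries. Points are libraries, bars their mean and error bars the SD of 4 libraries. At Ctrl-only regions H3K27ac lay at 83.4% in FGR and 90.8% in Ctrl, and H3K4me3 at 65.97% in FGR and 7.28% in Ctrl.

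Taking both marks, 2101 Ctrl-only regions (41.4%) had H3K27ac and H3K4me3 peaks in all 4 FGR libraries. At 1512 (29.8%) these came with no H3K4me3 peak in any Ctrl library, and 524 of the 1512 were strong. The strongest of the 1512, named after their values were seen, lay at Tcf4, Basp1, Maml2, Ston2, Il1r1 and Akap7. At Il1r1, the receptor of interleukin-1, the region chr1:40294217-40296132 had 1422, 1488, 1916 and 1156 bp under H3K27ac peaks in FGR libraries and 1916, 1916, 1916 and 1900 bp in Ctrl libraries. H3K4me3 covered 389, 653, 660 and 779 bp there in FGR libraries and nothing in Ctrl libraries, whereas the H3K27ac values of the groups overlapped. At 594 (11.7%) H3K27ac was called in all 4 FGR libraries and H3K4me3 in none, with Incenp, Chd7, Cul5, Cxcr6 and Dyrk1a as the strongest, named after their values were seen. The region at Cxcr6, a chemokine receptor of lymphocytes, had 1192, 1254, 1257 and 1256 bp under H3K27ac peaks in FGR libraries and 1500 bp in each Ctrl library. It had no H3K4me3 peak in any library.

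Neither H3K9ac nor H3K4me3 was called in any FGR library at 1107 regions, of which 48 were strong. Of these, 115 regions (2.3% of the Ctrl-only regions) also lacked H3K27ac in every FGR library. Their median fold in Ctrl was 4.07, 75.7% lay inside genes and 1 was strong. The one with the strongest Ctrl H3K9ac, chosen after its values were seen, lay near Ahnak at chr19:8984598-8985415 and had 0 bp under H3K27ac peaks in each FGR library, against 685, 716, 744 and 548 bp in Ctrl libraries. H3K4me3 was called there in 1 Ctrl library only, over 323 bp.

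H3K9me3, a mark of heterochromatin, was deposited as broad peak lists for replicates 1 to 3. A peak lay at 0.04 to 0.12% of the Ctrl-only regions in FGR and at 8.87 to 16.28% in Ctrl libraries. The broad lists of the 2 groups were cut at different thresholds, so these shares were not compared.

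Region by region, the bp under peaks of each mark was compared with limma over all merged H3K9ac regions that had a peak of that mark in at least 2 libraries. For H3K27ac 4807 of the 5073 regions entered, 3295 (68.5%) had less covered length in FGR at an adjusted p under 0.05 and 10 had more. Among all 47424 regions tested 61.6% had less and 0.466% more, so under this filter the share with less lay close to that of regions in general. Of the regions called in all 8, 16026 were tested. Of these 13216 had less, a larger share than among the Ctrl-only regions, and 42 had more. The median difference of the Ctrl-only regions was −304.8 bp, against −288.0 bp over all regions tested and −536.1 bp over the regions called in all 8. With no filter the shares were not close. Then 2158 of the 5073 (42.5%) had less, against 13.3% of all 151724 regions, and 3 (0.0591%) had more, against 0.0587%. Of the 151724, only 47424 had an H3K27ac peak in at least 2 libraries, against 4807 of the 5073. The shares without a filter are therefore not those of like regions. After quantile normalization, which removes the overall difference between libraries, 354 (7.36%) had less and 1091 (22.7%) had more, against 9.55% and 13% of all regions tested. Normalized values are no longer lengths within a region. For either mark, a difference given after quantile normalization is therefore no gain or loss of covered bp.

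For H3K4me3 3524 of the 5073 regions entered, many of them only through FGR libraries, and the count among those that entered, 3040 with more covered length in FGR beside a background of 86.5%, is therefore no measure of the regions as a whole. For the same reason no p is given below for a region that had peaks of a mark in at least 2 libraries of one group and in at most 1 of the other. With no filter 2366 of all 5073 (46.6%) had more, against 16.4% of all merged regions. Of all 151724 merged regions only 35725 had an H3K4me3 peak in at least 2 libraries, so these shares too are not of like regions. Less covered length was called by limma at 0 regions, also at an unadjusted p under 0.05, against 0.0756% of all regions tested, and with no filter also at 0, against 0.0125%. After quantile normalization 515 of the 3524 (14.6%) had less and 778 (22.1%) more, against 26% and 17.5% of all regions tested. The narrowest peaks of the H3K27ac and H3K4me3 lists differed between groups as given above, and their part in covered length was not tested.

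The strongest Ctrl-only regions were ranked by the lowest percentile that their peak reached in any of the 4 Ctrl lists. The 12 strongest lay at Agmo, Cd53, 2610001J05Rik, Olfr69, Ccl12, Cmss1, Tcf4, Rapgef2, Rgs1, Akap13, Abca9 and Basp1. All 12 had H3K27ac and H3K4me3 peaks in all 4 FGR libraries, and all 12 were strong by the scaled rule. Agmo, an ether lipid monooxygenase expressed in macrophages, ranked highest with a region over its start at chr12:37240732-37243046. Its Ctrl H3K9ac folds were 17.65, 17.63, 15.83 and 15.74. H3K27ac covered 2038, 1629, 1976 and 1570 bp of its 2315 bp in FGR libraries and 2138, 2114, 2315 and 2129 bp in Ctrl libraries. Every FGR library lay below every Ctrl library (difference −370.8 bp, SE 116.3, limma adjusted p = 0.0248), but after quantile normalization the difference was 308.0 bp (adjusted p = 0.0696). H3K4me3 covered 1885, 1941, 1860 and 1919 bp in FGR libraries and 793, 331, 0 and 472 bp in Ctrl libraries. The groups did not overlap, and FGR was higher (difference 1502.2 bp, limma adjusted p = 6.87e-05).

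At Cd53 the region chr3:106787465-106790894 held the promoter printed above and had Ctrl H3K9ac folds of 14.8, 15.15, 16.73 and 15.74. The nearest FGR H3K9ac peak lay 62472 bp away. H3K27ac covered 2833, 3221, 2898 and 2985 bp of 3430 bp in FGR libraries and 3430, 3419, 3392 and 3430 bp in Ctrl libraries. All FGR libraries lay below the Ctrl libraries by this measure (difference −433.5 bp, limma adjusted p = 0.0025). H3K4me3 covered 2992, 2886, 2943 and 2951 bp in FGR libraries and 1127, 1922, 1119 and 2183 bp in Ctrl libraries. FGR was higher without overlap (difference 1355.2 bp, limma adjusted p = 0.00155). After quantile normalization the H3K27ac difference was 522.3 bp and the H3K4me3 difference −273.6 bp, both of the opposite sign.

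The chemokine gene Ccl12 had a Ctrl-only region over its start, at chr11:82100387-82103397, with Ctrl H3K9ac folds of 17.93, 14.32, 16.73 and 14.9. H3K27ac covered 2911, 2845, 2785 and 2886 bp in FGR libraries and 3011, 2975, 3011 and 3011 bp in Ctrl libraries. Both groups were covered almost along the whole region, with FGR lower in each library (difference −145.2 bp, limma adjusted p = 0.0151; 745.8 bp after quantile normalization). H3K4me3 covered 1450, 1992, 2318 and 2273 bp in FGR libraries and 0, 334, 0 and 0 bp in Ctrl libraries, a higher value in every FGR library.

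Abca9, a lipid transporter gene, had a wide region over its start at chr11:110165308-110169719. H3K27ac covered 2694, 2183, 1982 and 1836 bp of 4412 bp in FGR libraries and 4412, 4266, 4300 and 4328 bp in Ctrl libraries. H3K4me3 covered 3688, 4090, 3760 and 3533 bp in FGR libraries and 1654, 1598, 1393 and 1293 bp in Ctrl libraries. The marks moved in opposite directions without overlap between groups, with differences of −2152.8 bp for H3K27ac (limma adjusted p = 5.98e-05) and 2283.2 bp for H3K4me3 (limma adjusted p = 4.54e-06), and both kept their sign after quantile normalization (−1225.2 and 536.2 bp).

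Among the widest Ctrl-only regions was one of 5417 bp at chrX:13631517-13636933, in Gpr34, which encodes a lysophosphatidylserine receptor of microglia. H3K27ac covered 2936, 2605, 2954 and 2560 bp in FGR libraries and 5148, 5417, 5417 and 5340 bp in Ctrl libraries. H3K4me3 covered 5298, 5045, 5029 and 5009 bp in FGR libraries and 0, 487, 0 and 0 bp in Ctrl libraries. Neither mark overlapped between groups (limma adjusted p = 1.13e-05 for H3K27ac), and both differences kept their sign after quantile normalization. Other wide regions lay at Dock10 (5133 bp), Picalm (4596 bp), Abca9 (4412 bp) and Akap13 (4297 bp).

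**Figure D4:**
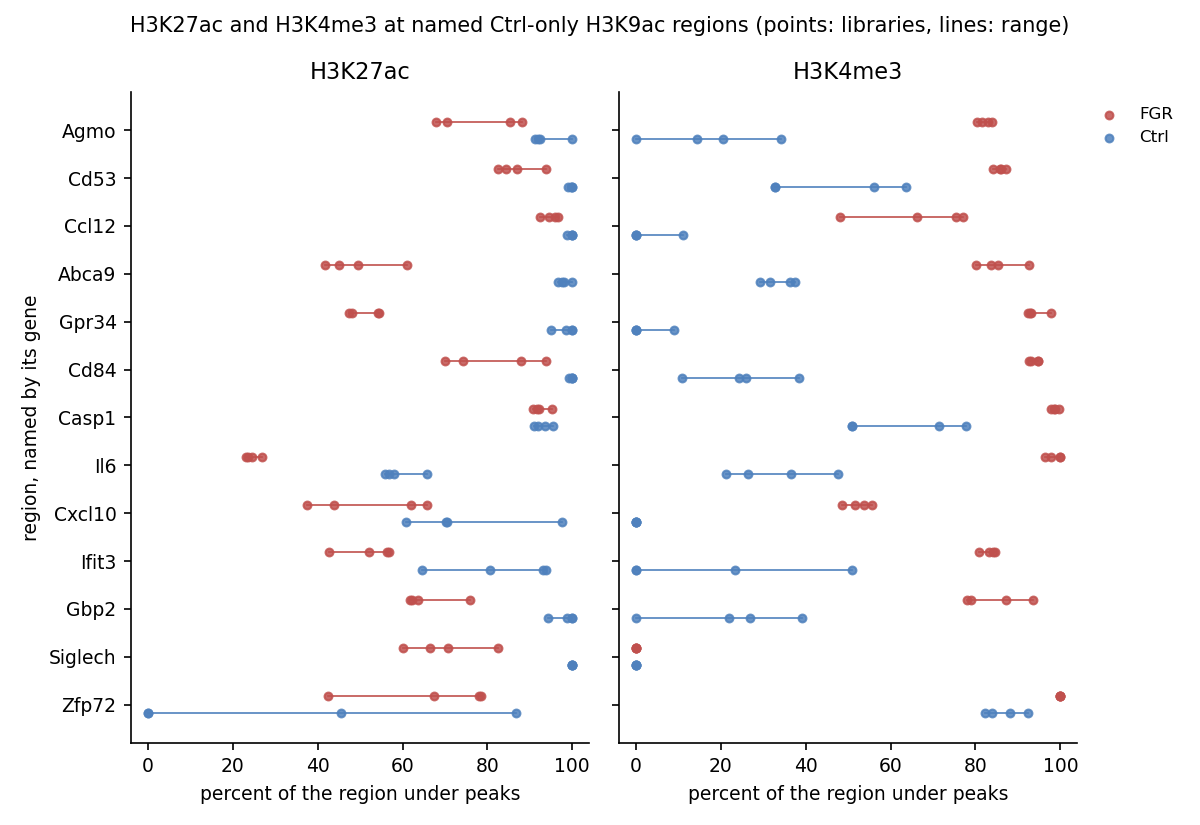
Percent of 13 Ctrl-only regions under H3K27ac peaks (left) and H3K4me3 peaks (right), horizontal axis, with regions named by gene down the page and FGR above Ctrl. Points are libraries and lines their range. H3K4me3 covered a larger part in every FGR library than in any Ctrl library at each of the regions drawn except Siglech, which had no H3K4me3 peak, and among those drawn H3K27ac overlapped between groups at Casp1, Cxcl10 and Zfp72.

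Ctrl-only regions were nearest to 3006 protein-coding genes, of which 1981 had 1 such region and 132 had at least 5. At least 1 lay in or within 1 kb of 2144 of 21883 genes (9.8%), and 256 genes (1.17%) had one within 1 kb of their start or end. Genes with one were long, with a median of 71.0 kb against 14.8 kb for the other genes, and long genes offer more room for a region. The 6 genes nearest to most Ctrl-only regions were Srgap2 (19), Mbnl1 (16), Hdac9 (14), Elmo1 (13), Cadm1 (12) and Zeb2 (12). Srgap2 encodes a GTPase-activating protein of Rac, Hdac9 a histone deacetylase, Elmo1 an adaptor of phagocytic engulfment and Zeb2 a zinc finger repressor. All 19 regions of Srgap2 lay inside the gene and were 679 to 3756 bp wide. H3K27ac was called in all 4 FGR libraries at 14 of the 19 and in all 4 Ctrl libraries at 19, and H3K4me3 in all 4 FGR libraries at 9 and in all 4 Ctrl libraries at 0. At Hdac9, 13 of 14 had H3K27ac and 11 of 14 had H3K4me3 in all 4 FGR libraries. At Zeb2, 10 of the 12 lay outside the gene.

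Genes were grouped by function in lists chosen with earlier results of these data known, and counts are given beside the 9.8% of all genes. The lists were not matched to all genes in gene length or in Ctrl H3K9ac calls. The part of these 2 properties in the shares was not tested. In the list of homeostatic microglial genes, 10 of 27 (37.0%) had a Ctrl-only region in or within 1 kb of them, among them Mef2c (5 regions), P2ry12 (4), Tgfbr2 (4), Gpr34 (3), Tgfbr1 (2), Entpd1, P2ry6 and Siglech. Of the 24 regions at the 10 genes, 20 had H3K27ac in all 4 FGR libraries and 24 in all 4 Ctrl libraries, and 10 had H3K4me3 in all 4 FGR libraries and 1 in all 4 Ctrl libraries. Only 2 of the 24 were strong. At P2ry12, the ADP receptor that marks resting microglia, all 4 regions lay inside the gene between 1070 and 1837 bp wide. Each had H3K27ac in 4 FGR and 4 Ctrl libraries, and H3K4me3 in 3, 4, 2 and 0 FGR libraries and in no Ctrl library. At Mef2c, a transcription factor of microglia and neurons, all 5 regions kept H3K27ac in 4 FGR libraries and 3 had no H3K4me3 peak in any library. At Tgfbr2, a receptor of TGF-beta, H3K27ac was called in 4, 4, 4 and 3 FGR libraries.

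Within 1 kb of an end of Siglech, a sialic acid lectin of microglia, lay the region chr7:55778896-55779828. H3K27ac covered 561, 660, 770 and 619 bp there in FGR libraries and all 933 bp in each Ctrl library (limma adjusted p = 0.00197). After quantile normalization the difference was 155.5 bp, which is no longer a length within the region. Every FGR library lay below every Ctrl library for H3K27ac, and no library of either group had an H3K4me3 peak there.

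Of 21 microglial transcription factors, 8 (38.1%) had a Ctrl-only region in the gene (Mef2c, Elf1, Fli1, Ikzf1, Mef2a, Bach1, Irf2 and Smad3) and none had one at its start or end. At 18 of the 21 a region called in all 8 libraries lay at the start or end. Of 35 immune signalling enzymes and adaptors, 18 (51.4%) had one in the gene and none within 1 kb of the outer limits of its annotated extent, although a region of Dock10 overlapped the promoter in the RefSeq table, which lies inside that extent. Apbb1ip, an adaptor of integrin activation, held 9 regions, all with H3K27ac in 4 FGR and 4 Ctrl libraries. Dock10, an exchange factor of small GTPases, held 7, likewise with H3K27ac in 4 FGR and 4 Ctrl libraries, and the kinase gene Lyn held 4. At 30 of the 35 a region called in all 8 libraries lay at the start or end.

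Of 37 leukocyte surface and adhesion genes, 12 (32.4%) had a Ctrl-only region and 6 had it at a start or end, namely Cd53, Cd84, Clec4a1, Clec5a, Itgax and Ms4a6b. Cd84 encodes a SLAM family receptor. Its region lay at chr1:171839263-171842456. H3K27ac covered 2807, 2999, 2234 and 2370 bp of 3194 bp in FGR libraries and 3194, 3170, 3194 and 3194 bp in Ctrl libraries (limma adjusted p = 0.0142). After quantile normalization the H3K27ac difference was 309.5 bp, which is no longer a length within the region. H3K4me3 covered 2975, 3026, 3028 and 2959 bp in FGR libraries and 1228, 773, 345 and 827 bp in Ctrl libraries (limma adjusted p = 1.57e-05). Neither mark overlapped between groups.

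Of 27 genes of pattern recognition and the inflammasome, 7 (25.9%) had a Ctrl-only region, with 5 regions at Aim2 and regions at the ends of Casp1 and Ifi204. Each of the 5 regions of Aim2 had H3K27ac and H3K4me3 in 4 FGR libraries and H3K27ac in 4 Ctrl libraries. Casp1 encodes the protease that matures interleukin-1 beta, and its region at chr9:5298016-5299893 had Ctrl H3K9ac folds of 13.17, 13.5, 12.25 and 11.8. H3K27ac covered 1706, 1788, 1723 and 1732 bp of 1878 bp in FGR libraries and 1710, 1755, 1794 and 1726 bp in Ctrl libraries. The groups overlapped, and the difference of −9.0 bp (SE 38.6) did not pass the test (limma adjusted p = 0.848). After quantile normalization the difference was 623.1 bp (limma adjusted p = 0.000349), a value that is not a covered length. H3K4me3 covered 1851, 1835, 1874 and 1854 bp in FGR libraries and 1461, 954, 956 and 1341 bp in Ctrl libraries, higher in every FGR library (limma adjusted p = 0.00133; −382.0 bp after quantile normalization).

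Of 27 cytokine and chemokine genes, 8 (29.6%) had a Ctrl-only region and 3 had it at a start or end, namely Ccl12, Cxcl10 and Il6. The cytokine gene Il6 had one at chr5:30012784-30014135. H3K27ac covered 319, 362, 332 and 311 bp of 1352 bp in FGR libraries and 755, 785, 888 and 768 bp in Ctrl libraries (difference −468.0 bp, limma adjusted p = 9.9e-05, and −106.6 bp with an adjusted p of 0.229 after quantile normalization). H3K4me3 covered 1352, 1352, 1304 and 1322 bp in FGR libraries and 287, 495, 357 and 642 bp in Ctrl libraries (limma adjusted p = 2.74e-05). FGR lay below Ctrl for H3K27ac and above it for H3K4me3 in every library. At Cxcl10 the region chr5:92348681-92349807 had low Ctrl H3K9ac folds of 4.48, 3.86, 5.68 and 4.78 and was not strong. H3K27ac covered 742, 494, 421 and 698 bp in FGR libraries and 794, 685, 792 and 1099 bp in Ctrl libraries, with overlapping groups (limma adjusted p = 0.0718). H3K4me3 covered 548, 606, 627 and 581 bp in FGR libraries and was not called in any Ctrl library.

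Of 27 genes of the interferon response, 3 (11.1%) had a Ctrl-only region, all at a start or end, namely Ifit3, Gbp2 and Ifi27. At Ifit3 the region chr19:34582868-34584422 had H3K27ac over 877, 811, 663 and 883 bp in FGR libraries and over 1449, 1254, 1004 and 1458 bp in Ctrl libraries (limma adjusted p = 0.00581; 5.7 bp with an adjusted p of 0.979 after quantile normalization). H3K4me3 covered 1257, 1294, 1309 and 1315 bp in FGR libraries and 792, 0, 0 and 362 bp in Ctrl libraries (limma adjusted p = 0.00107). At Gbp2 the region chr3:142619545-142621170 was not strong and had H3K27ac over 1033, 1233, 1010 and 1003 bp in FGR libraries and over 1606, 1626, 1626 and 1533 bp in Ctrl libraries (limma adjusted p = 0.000266; 11.8 bp with an adjusted p of 0.928 after quantile normalization). At both genes the groups did not overlap for either mark. H3K4me3 at Gbp2 covered 1523, 1270, 1417 and 1282 bp in FGR libraries and 637, 355, 435 and 0 bp in Ctrl libraries (limma adjusted p = 0.000272).

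Of 27 genes of complement and phagocytosis, 8 (29.6%) had a Ctrl-only region, with 3 regions at Mertk, the receptor for engulfment of dying cells, and a region at an end of Itgax. Of 24 genes of lysosome and lipid handling, 7 (29.2%) had one, including Abca1 (2) and Soat1 (2), and of 19 genes of antigen presentation 1 (Ctss). Other lists had few. Of 367 Zfp zinc finger genes 25 (6.8%) had one, 7 of them at a start or end, and of 83 cytosolic ribosomal protein genes 1 (Rps15a). Of 67 replication-dependent histone genes 1 had one (H4c3). No Ctrl-only region lay in or at 39 Hox genes, 15 housekeeping genes, 15 genes of neurons, 12 of the oligodendrocyte lineage or 11 of lymphocytes and neutrophils. Of 11 genes of border-associated macrophages 1 had one (Mrc1, 3 regions), of 11 astrocyte genes 1 (Slc1a3) and of 10 endothelial and mural genes 2 (Acta2 and Cdh5).

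**Figure D5:**
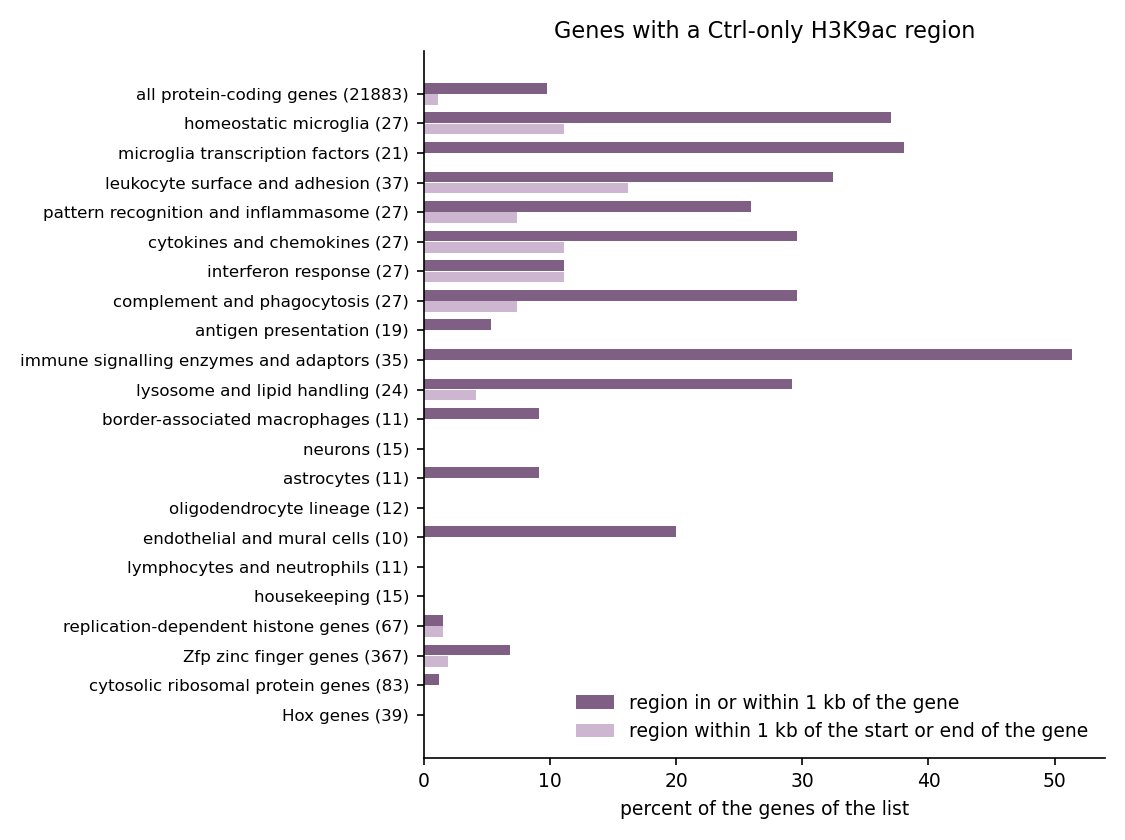
Percent of the genes of each list (horizontal axis) with a Ctrl-only region in or within 1 kb of the gene (dark) or within 1 kb of its start or end (light), with the number of genes of each list in brackets. Immune signalling genes reached 51.4%, microglial transcription factors 38.1% and homeostatic microglial genes 37.0%, against 9.8% of all protein-coding genes. A region with an H3K9ac peak in all 4 Ctrl lists lay at the start or end of 91.4%, 85.7% and 81.5% of these genes, against 50.5% of all. Of the housekeeping genes 93.3% had such a region and none had a Ctrl-only region.

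At the zinc finger gene Zfp72 the region chr13:74390233-74390900 had Ctrl H3K9ac folds of 8.12, 10.47, 9.56 and 8.15. H3K4me3 covered all 668 bp in each FGR library and 617, 560, 550 and 589 bp in Ctrl libraries (limma adjusted p = 0.0106; −660.5 bp after quantile normalization). H3K27ac covered 524, 284, 450 and 521 bp in FGR libraries and 0, 580, 304 and 0 bp in Ctrl libraries, with overlap between groups (limma adjusted p = 0.177). With Ctrl peaks scaled to the FGR background the H3K27ac difference was 444.8 bp.

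After quantile normalization the H3K4me3 difference at Zfp72 was thus negative, although peaks of each FGR library covered the whole region and no Ctrl library did so. Normalized values are no longer lengths within the region, so this sign shows no lower H3K4me3 cover in FGR there. At other regions the H3K4me3 difference after quantile normalization did not pass the test. The limma adjusted p was 0.651 at Cd53, 0.0797 at Casp1, 0.488 at Il6, 0.286 at Ifit3 and 0.266 at Gbp2.

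The regions with the smallest limma p for H3K27ac lay at Elmo1, Lrp6, Gpr34, Ube2h, Ndfip1 and Pcbp2 for less covered length in FGR. The region at Lrp6 passed the filter through Ctrl libraries alone, so this order by p is a description. At Lrp6, a co-receptor of Wnt, the region chr6:134531110-134531924 had 0, 41, 0 and 0 bp under H3K27ac peaks in FGR libraries and all 815 bp in each Ctrl library. Its Ctrl H3K9ac folds were 5.88, 6.06, 2.99 and 5.62, and it was not strong. H3K4me3 was called in 1 FGR library only, over 98 bp.

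More H3K27ac in FGR was called at 10 regions. The 6 with the smallest p lay on an unplaced contig and at Plrg1, Wwox, Nedd4l, Cat and Eepd1. The region at Wwox passed the filter through FGR libraries alone, so its place among the 10 is a description. In Wwox, an oxidoreductase gene, the region chr8:114463142-114463708 had 251, 241, 300 and 144 bp under H3K27ac peaks in FGR libraries and none in Ctrl libraries. Its Ctrl H3K9ac folds of 4.44, 4.44, 4.26 and 3.09 were low, and H3K4me3 covered 345, 472, 192 and 380 bp in FGR libraries and none in Ctrl libraries. After quantile normalization the H3K4me3 difference was −16.5 bp.

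More H3K4me3 in FGR had the smallest p at Adrb1, Arhgap4, Cask, Jmjd1c, Tex13c3 and Nek7. The region near Adrb1 passed the filter through FGR libraries alone, so this order too is a description. Near Adrb1, which encodes a receptor of noradrenaline, the region chr19:56725372-56727031 was under H3K4me3 peaks along all 1660 bp in each FGR library and in no Ctrl library. H3K27ac covered 148, 333, 169 and 0 bp there in FGR libraries and 1340, 1217, 1017 and 1251 bp in Ctrl libraries, lower in every FGR library (limma adjusted p = 8.28e-05). With Ctrl peaks scaled to the FGR background the H3K27ac difference was −554.0 bp and did not pass the test (limma adjusted p = 0.0858).

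Of 1005 miRNA hairpins in the RefSeq table, 2 overlapped a Ctrl-only region, against 113 that overlapped a region called in all 8. One is Mir29b-1, whose mature products belong to a family that represses collagen and other matrix genes. The mature strand at chr6:31063025-31063047 on the minus strand is printed with its seed, bases 2 to 8, in capitals, from RefSeq.
mmu-miR-29b-3p: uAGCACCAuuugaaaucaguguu

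The region around it, chr6:31062809-31063908, was among the weaker ones, with H3K27ac in 1 FGR and 4 Ctrl libraries and H3K4me3 in no library of either group. The other hairpin was Mir6353, where H3K27ac was called in 4 FGR and 4 Ctrl libraries and H3K4me3 in 4 FGR libraries and no Ctrl library.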

How the data were processed

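H3K9ac, H3K27ac and H3K4me3 were profiled in 4 FGR and 4 Ctrl libraries each. Per the submitters' processing notes, the build was mm10 and the tools, in roles not given there, were MACS2 2.2.7.1 and DiffBind 3.12.0 besides Bowtie2 2.4.5, Trim Galore 0.6.5 and SAMtools 1.3.1. The deposited peak lists give a fold ratio over the local background, −log10 p-values and −log10 q-values, and a whole-number score made by the authors. Read counts did not come with them, so depth is unknown. The pileup at each summit was solved from fold and −log10 p.

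Peaks of the 8 H3K9ac lists were merged where they overlapped or touched. Genes came from RefSeq tables of GRCm38.p6, the assembly behind mm10. The share of regions with a peak was tested over libraries by exact permutation (two-sided), and bp under peaks per region with limma 3.58.1 in R 4.3.3 (Benjamini-Hochberg adjustment, filter of a peak in at least 2 libraries). The merging, the pileups and the limma fit were tested on simulated data. Python 3.11.15, pandas 2.3.3 and scipy 1.17.1 did the rest. Alternatives were equal list lengths, a −log10 q of at least 5, a cover of 50%, gaps of 500 bp, scaled Ctrl peaks, quantile normalization, other filters, a replicate block and leaving out each library. Regions are named by their nearest protein-coding gene: the 12 strongest, the 6 widest, the 6 genes nearest to most, up to 4 genes per list with a region at an end, the 6 smallest limma p per mark and direction, the 10 strongest that are strong after scaling, the 5 strongest regions outside the rule and the 5 weakest inside. The Ctrl-only regions and the lists were chosen with earlier results of these data known. Replicate 4 of H3K9me3 and the inputs were not used here, and some named regions are not reported here.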

Additional observations from a re-analysis of the deposited data

Results flagged for a closer look

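In groups of 4 libraries, a library was marked when its gap to the nearest other, as a share of the group's range, was above Dixon's 95% critical value, which chance gives in about 1 in 20 groups. Of 93 groups examined 11 were marked, all at the regions given by library. The rate of 1 in 20 does not hold where all libraries but 1 share the same value, such as 0 bp or the full width. Any other value is then marked. For H3K4me3 covered length in FGR these were the 5298 bp at Gpr34 and the 98 bp at Lrp6. For H3K4me3 in Ctrl they were the 334 bp at Ccl12 and the 487 bp at Gpr34, each the only library with a peak in its group. For H3K27ac in FGR they were the 1233 bp at Gbp2 and the 41 bp at Lrp6. For H3K27ac in Ctrl they were the 2315 bp at Agmo, the 2975 bp at Ccl12 and the 3170 bp at Cd84. For the Ctrl H3K9ac fold they were 2.99 at Lrp6 and 3.09 at Wwox.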

How the results depend on the processing

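The number of Ctrl-only regions was 5073, and 1202 with Ctrl peaks scaled to the FGR background, 2528 with the FGR H3K4me3 lists in place of the FGR H3K9ac lists and 1107 with no peak in any of the 8. With a library left out it was 5113 to 6190. Other settings kept it within 1.5 times. The H3K27ac share difference of −7.40 points turned to 7.91 with scaled Ctrl peaks and was −17.25 with equal lists, −17.29 at a −log10 q of at least 5, −30.98 at a cover of 50% and −2.87 with regions from scaled Ctrl H3K9ac peaks. Its −3.88 against the regions called in all 8 turned to 2.31 at a cover of 50%, 5.2 with scaled Ctrl H3K27ac peaks and 0.19 with regions from scaled Ctrl H3K9ac peaks (exact permutation p = 0.5429), and was −8.37 with equal lists and −7.89 at the stricter q. The H3K4me3 difference, 58.69, was 5.46 with equal lists and 32.54 at a cover of 50%. The excess of the H3K4me3 difference, 29.39, turned to −2.18 with equal lists and −21.41 at a cover of 50%, and was 8.98 at the stricter q, 15.7 with scaled Ctrl H3K4me3 peaks and 47.3 with regions from scaled Ctrl H3K9ac peaks. Without 1 library these 4 values ran from −8.41 to −5.68, −4.27 to −3.35, 57.4 to 59.79 (all Ctrl-only regions, H3K4me3) and 28.46 to 30.17, where the smallest exact permutation p is 0.0571. The share within 1 kb of a gene start or end, 4.79%, was 17.69% within 5 kb, 2.68% for starts and 7.08% for regions from scaled Ctrl peaks.

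Regions with less H3K27ac in FGR numbered 3295, 354 after quantile normalization, 2158 with no filter and 2767 to 3209 without 1 library. Those with more numbered 10, 1091 after quantile normalization, 3 with no filter, 4 with a peak in at least 4 libraries, 6 with equal lists, 112 with scaled Ctrl peaks and 4 to 9 without 1 library (4 without FGR replicate 1, Ctrl replicate 3 or Ctrl replicate 4, and 5 without Ctrl replicate 1). Less H3K4me3 was called at 0, at 515 after quantile normalization, 11 with equal lists and 0 without 1 library. More was called at 3040, 778 after quantile normalization, 475 with equal lists and 2659 to 2878 without 1 library. With the replicate number as a block the counts were 2942 and 6 for H3K27ac and 0 and 2840 for H3K4me3. Same-numbered libraries correlated at −0.018 to 0.011 in the deviations of covered length from the group means, so this measure shows no pairing by number. Whether same-numbered libraries were prepared together was not tested. The cause of the changes between settings was not tested. Depth is known only through the background, so a missing FGR call is not the absence of H3K9ac.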
